A study of Homo sapiens with 6 samples.

Results

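The zinc finger genes of human chromosome 19 were taken as the protein-coding genes on that chromosome whose symbol is ZNF followed by a digit. The rule found 249 genes among the 58243 gene identifiers in the count files, and 237 of them had enough counts to be tested. They were measured in nascent RNA of A375, a human melanoma cell line. Both groups were stably transfected lines kept in hygromycin B, and they differed in the plasmid: an empty vector (EV, 3 libraries) or human PRL3 (3 libraries), a phosphatase encoded by PTP4A3. All 6 libraries came from cells given 500 µM 4-thiouridine (4sU) for 20 min, after which the labelled RNA was pulled out of the total RNA, depleted of ribosomal RNA and sequenced on both ends with strand kept. The labels do not say whether each line is a clone or a pool, nor that the libraries came from separate cultures, so the p-values measure only the spread between these libraries, which may be technical.

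Most of these genes encode KRAB zinc finger proteins, the largest family of DNA-binding repressors in the human genome. Such a protein reads DNA with a row of C2H2 fingers, each a short loop held by a zinc ion, and its KRAB domain binds TRIM28 (KAP1), a scaffold that brings the histone methyltransferase SETDB1 and heterochromatin protein HP1 to the site. The family grew by tandem duplication, which left its genes in dense clusters along chromosome 19, and many members silence transposable elements. The ZNF clusters themselves carry the repressive histone mark H3K9me3 over the exons that encode the fingers.

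The finger is the sequence unit that defines the family. It is shown for 8 genes, 6 that were higher in PRL3 and, in the last lines, 2 that were lower, so that the repeated linker between fingers can be seen next to the stretch that changes from gene to gene. Each line gives 78 bases of coding sequence, GRCh38, 5′ to 3′ on the gene's strand, with the linker in capitals.

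ZNF430: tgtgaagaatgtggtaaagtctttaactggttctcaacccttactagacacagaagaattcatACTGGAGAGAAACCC
ZNF43: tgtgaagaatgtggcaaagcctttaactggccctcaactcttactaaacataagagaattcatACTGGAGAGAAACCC
ZNF728: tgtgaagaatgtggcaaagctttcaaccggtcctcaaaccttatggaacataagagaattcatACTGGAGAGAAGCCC
ZNF136: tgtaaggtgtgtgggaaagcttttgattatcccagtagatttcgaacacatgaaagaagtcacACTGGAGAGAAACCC
ZNF350: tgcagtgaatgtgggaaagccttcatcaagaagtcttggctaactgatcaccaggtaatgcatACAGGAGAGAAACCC
ZNF701: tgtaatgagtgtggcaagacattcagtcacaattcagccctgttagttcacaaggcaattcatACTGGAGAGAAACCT
ZNF559: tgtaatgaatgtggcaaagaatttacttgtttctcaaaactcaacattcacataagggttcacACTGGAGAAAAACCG
ZNF787: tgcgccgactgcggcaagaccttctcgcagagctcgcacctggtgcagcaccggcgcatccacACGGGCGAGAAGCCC

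The finger of ZNF430 lies at chr19:21057011-21057088 (plus strand), that of ZNF43 at chr19:21809014-21809091 (minus), that of ZNF728 at chr19:22976320-22976397 (minus), that of ZNF136 at chr19:12186970-12187047 (plus), that of ZNF350 at chr19:51965754-51965831 (minus), that of ZNF701 at chr19:52582873-52582950 (plus), that of ZNF559 at chr19:9342346-9342423 (plus) and that of ZNF787 at chr19:56088809-56088886 (minus), each within 1 coding exon. The linker ACTGGAGAGAAACCC of ZNF430, ZNF43 and ZNF136 was the most frequent one, found in the first linked finger of 36 of the 213 members that had such a finger (16.9%). Among the sequences shown, ZNF787 has the linker ACGGGCGAGAAGCCC. A search of the translated canonical transcripts counted a median of 12 fingers per member, and found a KRAB-like pattern in 212 members and none in 37. Because the fingers are copies of one another, reads can match several genes. Of the 249 members, 60 shared over 5% of the 75-base windows of their transcript with a transcript of another gene. That number includes genes that overlap a member at the same place, so it does not measure finger copies alone.

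Total gene counts ran from 36532207 to 57952035 per library. The gene of the plasmid was high in the libraries labelled PRL3: PTP4A3 had 161, 212 and 279 normalized counts in EV and 22328, 28767 and 22065 in PRL3. Of the markers of melanoma and the neural crest line, SOX10, MITF, PAX3 and AXL were expressed in all libraries. Of the pigment genes, MLANA and TYR were at or near 0 and PMEL lay between 23.8 and 60.03 normalized counts. DCT lay between 0.909 and 10.7 and TYRP1 between 0 and 24.1. Several markers of this list moved with the plasmid. SOX10 (log2 fold change −0.85), AXL (−0.40), NGFR (−1.69), SOX9 (−2.08) and S100B (−1.38) were called lower in PRL3 and PAX3 (0.67) higher by edgeR. Of 9 markers of other cell types, KRT5, PTPRC, CD3E and PECAM1 lay between 0 and 10.9 normalized counts, DCN, COL1A1 and VWF between 15.5 and 117, PDGFRB between 422 and 888, and KRT14 at 1083 to 1217 in EV and 352 to 614 in PRL3. Their part in the results was not tested. The groups also differed in where reads fell. Of the uniquely aligned reads, 33.3% ± 6.75 (SD, n = 3) in EV and 66.3% ± 3.18 (n = 3) in PRL3 matched no annotated exon on the counted strand. They are called reads outside exons here, and include any that lie on the strand opposite to an exon. Preparation batches are not given in the labels, so a batch and the plasmid cannot be told apart, and in bulk RNA fewer labelled cells cannot be told apart from less new RNA per cell.

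To ask how the zinc finger genes stood in PRL3 against EV, all 23884 genes with enough counts were fitted together with edgeR, and a gene is called here at an adjusted p (Benjamini-Hochberg, edgeR's quasi-likelihood test) under 0.05. Of the 237 members, 141 were higher in PRL3, 8 were lower and 88 had no call. Among all genes tested 20.0% were called higher and 22.7% lower, and among protein-coding genes 15.2% and 31.6%. The median log2 fold change of the members was 0.71 (quartiles 0.35 and 0.99), against 0.11 over all genes and −0.15 over protein-coding genes, and 206 members had a value above 0. In 162 members the 3 PRL3 libraries all exceeded the 3 EV libraries in normalized counts and in 11 they all fell short, where 29.7% and 26.6% of all genes did so. The change was moderate in most: 51 called members had a log2 fold change above 1 and 4 had one below −1.

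The groups differ in the reads outside exons, and these counts depend on the scale. Scaled to all uniquely aligned reads instead of by TMM, 52 members were higher (all genes 8.17%) and 21 lower (35.5%). Scaled to the total of gene counts, 190 were higher (39.8%) and 4 lower (12.9%). The median of the members was 0.24 on the first of these scales and 1.201 on the second, and that of all genes −0.36 and 0.60. The members' median thus stood 0.61 and 0.60 above that of all genes on the log2 scale, next to 0.60 in the fit used here. A change of scale moves every gene by nearly the same amount, so this difference had to stay about the same. Summed over the 249 members, the counts made up 0.338% ± 0.0512 (SD, n = 3) of gene counts in EV and 0.725% ± 0.0579 in PRL3, but 0.207% ± 0.0137 and 0.228% ± 0.0096 of all uniquely aligned reads. All 52 members that were higher on the scale of uniquely aligned reads were among the 141.

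The rest of chromosome 19 stood on the other side. Of its 805 other tested protein-coding genes, 49 were higher and 452 lower, with a median log2 fold change of −0.73. Within the stretches that the zinc finger clusters span, 84 other coding genes were tested, of which 17 were higher and 37 lower (median −0.47). Of these, the 75 without another zinc finger symbol, such as ZFP or ZSCAN, had 12 higher and 36 lower (median −0.53). The 11 tested coding genes of the chromosome with such a symbol had 5 higher and 1 lower (median 0.64). Of the 242 tested ZNF genes of other chromosomes, 91 were higher and 19 lower, with a median of 0.36. No test was made between these groups of genes. The noncoding genes of chromosome 19 with a ZNF symbol had 12 higher and 1 lower of 38 tested (31.6% and 2.63%, against the 20.0% and 22.7% of all genes).

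**Figure D1:**
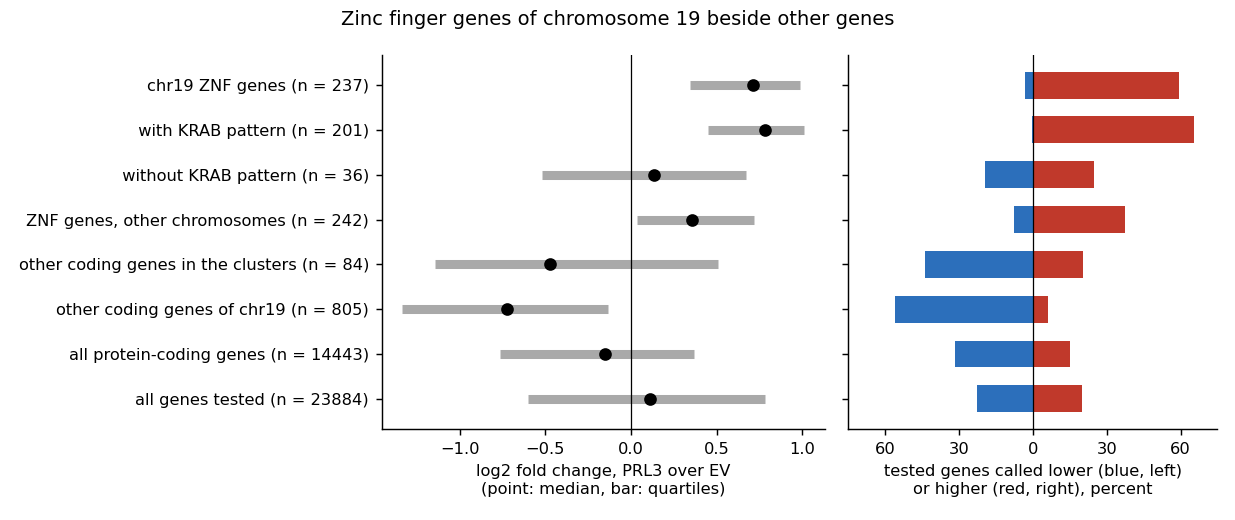
Left, median (point) and quartiles (bar) of the log2 fold change, PRL3 over EV, in each group of tested genes. Right, the percent of tested genes called higher (red) and lower (blue). The chromosome 19 ZNF genes have a median of 0.71 and the other coding genes of the chromosome −0.73.

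Among the members with the smallest p, ZNF701 had 181, 162 and 155 normalized counts in the EV libraries 1, 2 and 3 and 571, 578 and 562 in the PRL3 libraries 9, 10 and 11. This is a 3.43-fold rise (log2 fold change 1.78 ± 0.21, SE, edgeR adjusted p = 3.25e-05), and 229 bases of its exons overlap a neighbour on the same strand. ZNF430 had 539.5, 416 and 519 in EV and 1493, 1245 and 1342 in PRL3, and rose 2.76-fold (edgeR adjusted p = 3.7e-05). In both genes the lowest PRL3 library was above 2 times the highest EV library.

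ZNF136, a KRAB gene of the cluster near 12 Mb, had 807, 608 and 672 in EV and 1805, 1572 and 1686 in PRL3 (2.43-fold). ZNF431 had 1083, 833 and 1439 in EV and 3347, 2686 and 2965 in PRL3 (2.68-fold). ZNF350, also known as ZBRK1, a repressor that binds BRCA1, had 387, 308 and 418 in EV and 915, 1016 and 905 in PRL3 (2.54-fold). None of these 3 overlapped between groups. ZNF766 (2.59-fold), ZNF43 (2.24-fold) and ZNF264 (2.09-fold) rose likewise. ZNF724 rose 2.68-fold, but 51.9% of its transcript windows also occur in transcripts of another gene, so its counts are uncertain.

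The largest log2 fold changes were in 2 genes all but silent in EV, with under 10 counts in every EV library. They passed the count filter through PRL3 alone, so they had to differ, and their values are a description. Both are counted among the 141 members called higher. ZNF728 had 1.22, 3.61 and 1.82 normalized counts in EV and 80.3, 76.6 and 69.7 in PRL3. From 6 EV counts and 246 PRL3 counts the ratio was 34.7 (95% exact interval 15.7 to 95.6, which covers counting error only). ZNF723, the tested member next to it, had 0, 0 and 0.909 in EV and 11.3, 19.3 and 22.5 in PRL3, a ratio of 49.1 from a single EV count (95% exact interval 8.48 to 1974). Per kb of exon the levels in PRL3 were 0.578 and 0.202 CPM (counts relative to library size), far under the median of the members given below. ZNF536, which restrains neuronal differentiation and lies alone at 30.2 Mb, had 8.53, 25.3 and 14.5 in EV and 97.8, 103 and 79.3 in PRL3. It is named outside the rule for named genes, after its values were seen. In EV 1 its count was under 10, so it passed the count filter only with the help of PRL3 libraries, and its values are a description too. In all, 8 tested members had under 10 counts in an EV library.

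All 8 members called lower are named here. ZNF358 had 856, 1502 and 1023 normalized counts in EV and 246, 309 and 249.8 in PRL3, and fell by 2.07 on the log2 scale (SE 0.23, edgeR adjusted p = 2.24e-05). ZNF428, in which the search found 1 finger, had 1433, 1801 and 1327 in EV and 549.8, 669.7 and 612 in PRL3 (fell by 1.32). ZNF579 had 721, 1256 and 987 in EV and 374.8, 449 and 378 in PRL3 (fell by 1.30). In these 3 genes every PRL3 library was below every EV library. ZNF358 shares 18.3% of its transcript windows with another gene and 418 exon bases overlap one on the same strand.

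ZNF581 fell by 1.11 and ZNF580 by 0.67 on the log2 scale. Their exons overlap by 529 bases on the same strand, so reads between them cannot be told apart there. ZNF446, with 1420 exon bases shared with ZNF324 on the same strand, fell by 0.91. ZNF559 fell by 0.74 and ZNF787 by 0.50, both near the threshold (edgeR adjusted p = 0.0177 and 0.0285), and each lost the call in 7 of the other settings, ZNF559 without EV 1 or without any of the PRL3 libraries, and ZNF787 without EV 2, PRL3 9 or PRL3 11.

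**Figure D2:**
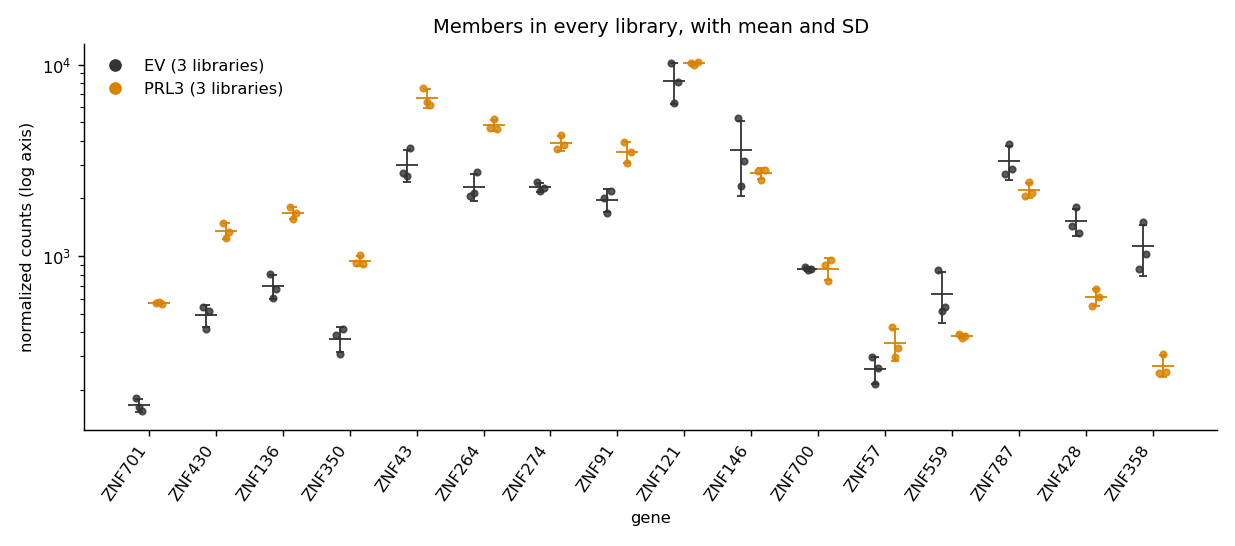
Normalized counts (log axis) of 16 named members in every library, EV in black and PRL3 in orange, with mean and SD of 3 libraries. The first 8 genes are higher in all PRL3 libraries, the next 4 have no call and the last 4 are lower in all PRL3 libraries.

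Members with a described role were taken from a list of 12. Of its 11 tested members 8 rose, 3 had no call and none fell, where 20.0% of all genes tested were higher and 22.7% lower. ZNF274, which recruits SETDB1 and TRIM28 to the 3′ exons of other ZNF genes, had 2426, 2180.1 and 2279 in EV and 3623, 4281 and 3792 in PRL3 (1.70-fold, edgeR adjusted p = 0.000949). ZNF91, a repressor of SVA retrotransposons with 32 fingers, had 2020.5, 1681 and 2199.6 in EV and 3965, 3057 and 3495 in PRL3 (1.78-fold). ZNF93, which represses L1 elements, had 760.0, 407 and 678 in EV and 1179.9, 1013 and 981 in PRL3 (1.72-fold). The groups did not overlap in these 3 genes, yet on the scale of all uniquely aligned reads their log2 fold changes were 0.29, 0.36 and 0.31 and none was called.

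ZNF175 (OTK18, 2.06-fold), ZNF224 (a repressor of the aldolase A gene, 1.62-fold) and ZNF568 (whose mouse counterpart represses a placental Igf2 transcript, 1.62-fold) also rose, ZNF224 and ZNF568 not on the scale of uniquely aligned reads. The call of ZNF568 was also lost without EV 2 or without any 1 of the PRL3 libraries, and that of ZNF93 without PRL3 9. ZNF331, an imprinted gene, had 1522, 1219 and 1435 in EV and 2069, 1918 and 1494 in PRL3, and the groups overlapped (log2 fold change 0.39 ± 0.17, SE). ZNF420 (Apak), a partner of p53, had a value of 0.44 with no call, though every PRL3 library was above every EV library. ZNF331 and ZNF420 were called higher on gene counts, under upper-quartile scaling and with coding genes only. ZNF331 was also called without EV 1 and with at least 10 counts in every library, and ZNF420 without EV 3. On uniquely aligned reads they were at −0.083 and −0.033 with no call. ZNF146, a protein made almost wholly of fingers, ranged from 2315 to 5239 in EV and from 2494 to 2832 in PRL3, with a log2 fold change of −0.40 ± 0.24 (SE). It was called lower without EV 2 (−0.62, edgeR adjusted p = 0.0322) and on the scale of all uniquely aligned reads (−0.88, edgeR adjusted p = 0.00785), and was at −0.011 without EV 1. ZNF382 was not tested, with counts of 0, 0 and 0 in EV and 1, 7 and 1 in PRL3.

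The median level of the members was 1.98 CPM per kb of exon in EV and 3.27 in PRL3. Of the members, 174 were above 1 in EV and 194 in PRL3. The highest in EV was ZNF581 at 31.2 CPM per kb, followed by ZNF121 at 24.1 and ZNF428 at 20.8. ZNF121, whose PRL3 libraries held 10229.9, 9896 and 10323 normalized counts, had 10247, 6329 and 8086 in EV and no call. The members were also split in 3 parts of 79 by the mean level per kb over all 6 libraries. Of the lowest 30, of the middle 58 and of the highest 53 were higher in PRL3, and 1, 0 and 7 were lower. The PRL3 libraries enter this level, so it is not independent of the change.

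The calls were also split by the domain that the protein carries. Of the 201 tested members with the KRAB-like pattern, 132 were higher and 1, ZNF559, was lower (median log2 fold change 0.78). Of the 36 without it, 9 were higher and 7 lower (median 0.14). On the scale of all uniquely aligned reads the counts were 50 higher and 6 lower with the pattern (median 0.31), and 2 and 15 without it (median −0.34). By finger number, 73 of the 103 members with 11 to 15 fingers and 30 of the 55 with 16 or more were higher and none was lower, while 3 of the 12 with 1 to 5 fingers were higher and 4 lower. By gene length in 3 parts of 79, 38 of the shortest and 52 of the longest members were higher and 6 and 1 lower. These splits were chosen after the values were seen, they overlap one another, and no test was made between them. For the members with 11 or more fingers, as for the list of described roles, 0 were lower also at an unadjusted p under 0.05, in DESeq2 and in limma-voom, but on the scale of all uniquely aligned reads 5 of the former and ZNF146 of the latter were lower.

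Position along the chromosome was read by starting a new cluster wherever neighbouring members lay over 1 Mb apart. This gave 9 clusters of 5 or more members, C1 to C9 from the short-arm end to the long-arm end, and 11 members outside them. The members on either side of the largest gap, which spans the centromere, had like medians: 0.78 over 81 tested on the short-arm side (46 higher, 2 lower) and 0.69 over 156 on the long-arm side (95 higher, 6 lower). The difference of 0.09 turned to −0.08 when EV library 3 was left out and was 0.03 without PRL3 library 9.

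C4 and C8 had the highest medians of the 9 clusters. C4, at 19.7 to 24.1 Mb on the short arm, held 37 members, of which 29 of 36 tested were higher and none lower (median log2 fold change 0.96). The 29 include ZNF728 and ZNF723, which passed the count filter through PRL3 alone. The summed normalized counts of C4 were 22229.9, 18243 and 25901 in EV and 47210.2, 41327 and 44019 in PRL3, a 1.997-fold difference. C8, at 51.6 to 53.6 Mb, had 28 of 36 higher and none lower (median 0.90), with sums of 17793, 12969 and 17433 in EV and 30723, 27341 and 27878 in PRL3 (1.78-fold). They stood highest on each of the 3 scales, which move all clusters by nearly the same amount. At an unadjusted p under 0.05 as well, and in DESeq2 and limma-voom, 0 members of either were lower, but on the scale of all uniquely aligned reads ZNF682 of C4 was called lower.

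At the other end, C1, 5 genes at 2.82 to 2.94 Mb, had no call in either direction by edgeR (0 at an unadjusted p under 0.05, 0 in DESeq2 and limma-voom) and a median of 0.06, though ZNF57 was called higher on gene counts and with coding genes only. Its sums overlapped between groups, with 1043, 864 and 1108 in EV and 1226, 1054 and 994 in PRL3. ZNF57, the most expressed gene of C1 per kb, had 297, 214 and 259 in EV and 424, 296 and 330.2 in PRL3, with no call. The median of C1 lay below that of all genes on each of the 3 scales, which move both by nearly the same amount. C2 (7.07 to 9.79 Mb) had 7 of 14 higher and 2 lower (median 0.37), C3 (11.5 to 12.6 Mb) 9 of 25 higher and none lower (0.52; DESeq2 called 1 lower), C6 (36.2 to 37.8 Mb) 10 of 25 higher and none lower (0.55; on uniquely aligned reads 2 members of C3 and 2 of C6 were lower), and C7 (43.5 to 45.1 Mb) 16 of 24 higher and 1 lower (0.69). C5, with 5 genes at 34.7 to 35.0 Mb, had 3 higher (0.72), ZNF302 and ZNF181 among them, and the median was 0.21 without the members that share over 5% of their windows. ZNF181 had 331, 248 and 631 in EV and 683, 733 and 925 in PRL3. Its call was lost without EV 1, EV 2 or PRL3 11. On uniquely aligned reads neither ZNF302 (log2 fold change 0.38) nor ZNF181 (0.49) was called.

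**Figure D3:**
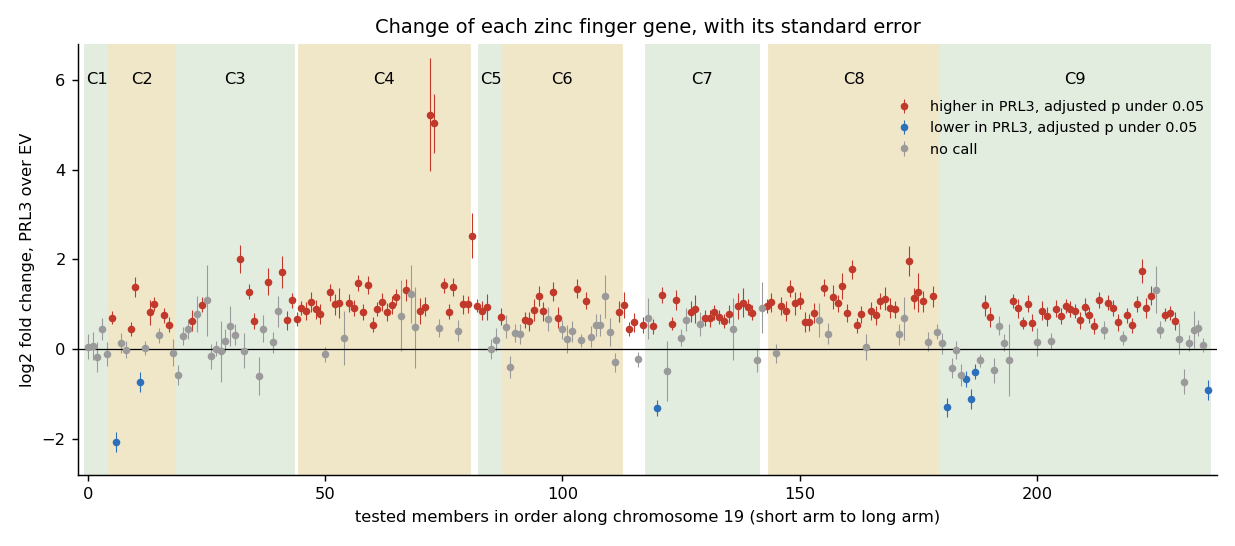
Log2 fold change, PRL3 over EV, with its standard error, of the 237 tested members in order along the chromosome, with clusters C1 to C9 shaded and members outside clusters on white. In C4 29 of 36 and in C8 28 of 36 are called higher, C1 has no call, and 5 of the 8 lower members are in C9.

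The members with the largest log2 fold change in C6, C8 and C9 were called higher. In C8, ZNF677 had 62.1, 44.5 and 102 normalized counts in EV and 306, 250.03 and 268 in PRL3 (3.92-fold). In C9, ZNF418 had 101, 155 and 172 in EV and 441, 573 and 415 in PRL3 (3.33-fold). In C6, ZNF383 had 442, 372 and 635 in EV and 1367, 1203 and 1112 in PRL3 (2.54-fold). In each of the 3 every PRL3 library was above every EV library.

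The most expressed gene per kb had no call in 5 of the 9 clusters: ZNF57, ZNF121, ZNF700, ZNF146 and ZNF480. Leaving out 1 library gave a call in 3 of them: without EV 1 ZNF121 (0.50, edgeR adjusted p = 0.0212) and ZNF480 (0.64, edgeR adjusted p = 0.0237) were higher, and without EV 2 ZNF146 was lower. Over the libraries left out ZNF121 ranged from 0.16 to 0.50 and ZNF480 from 0.14 to 0.64. ZNF700 in C3, which shares 15.2% of its transcript windows with another gene, had 874, 842 and 852 in EV and 897, 737 and 949.8 in PRL3, which overlap (log2 fold change 0.01 ± 0.17, SE). In C8, ZNF480 ranged from 655 to 1353 in EV and from 1059.6 to 1412 in PRL3, with a value of 0.35 ± 0.23 (SE). ZNF43 and ZNF302, the most expressed of C4 and C5, rose, and ZNF428 and ZNF581, those of C7 and C9, fell. At the low end of C4 and C8, ZNF682 and ZNF577 had values of −0.12 and −0.09 with no call, and both were above 0 when protein-coding genes alone were fitted, and on the library-size and upper-quartile scales. On all uniquely aligned reads ZNF682 was called lower (−0.59, edgeR adjusted p = 0.0164) and ZNF577 was at −0.56 with no call.

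The median over all tested members of the log2 level relative to the gene's EV mean was 0.04, −0.22 and 0.14 in EV 1, 2 and 3 and 0.75, 0.70 and 0.71 in PRL3 9, 10 and 11. EV 2 was the lowest EV library in each of the 9 clusters by this measure. It also had the smallest share of reads outside exons among the EV libraries, 28.7%, and EV 3 the largest, 41.1%, and the part of this share in the members' levels was not tested.

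The longest run of neighbours all called higher was 11 genes in C4, from ZNF66 to ZNF43 (chr19:20776304-21852125). Their log2 fold changes lay between 0.55 in ZNF708 and 1.47 in ZNF430. The promoters of ZNF430 and ZNF431 are shown as an example of the sequence that the duplicated genes share, with a gene of C3 for comparison. RefSeq promoters (GRCh38.p14, 250 bases before to 50 after the start, 5′ to 3′ on the gene's strand) matched 218 members by symbol. Capitals mark TCCAATCA, which holds the CCAAT box, and CTGTCACTCA, both searched on both strands. They are the 8 letters, and the 10 letters sharing no run of 5 with them, whose share of C4 promoters exceeded that of all promoters by most, and they do not overlap each other here.

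ZNF430: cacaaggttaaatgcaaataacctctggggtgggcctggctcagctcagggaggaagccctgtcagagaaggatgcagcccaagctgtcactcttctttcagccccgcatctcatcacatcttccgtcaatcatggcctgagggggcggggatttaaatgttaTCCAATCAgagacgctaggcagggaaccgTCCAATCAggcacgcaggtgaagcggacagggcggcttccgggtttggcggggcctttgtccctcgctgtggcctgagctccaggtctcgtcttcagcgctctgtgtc
ZNF431: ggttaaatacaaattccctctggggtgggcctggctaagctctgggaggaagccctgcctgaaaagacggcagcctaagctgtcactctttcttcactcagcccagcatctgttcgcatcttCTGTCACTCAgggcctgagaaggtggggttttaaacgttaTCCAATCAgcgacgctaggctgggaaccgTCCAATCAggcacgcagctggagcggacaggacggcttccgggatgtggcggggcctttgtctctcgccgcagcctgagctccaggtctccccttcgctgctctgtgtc
ZNF136: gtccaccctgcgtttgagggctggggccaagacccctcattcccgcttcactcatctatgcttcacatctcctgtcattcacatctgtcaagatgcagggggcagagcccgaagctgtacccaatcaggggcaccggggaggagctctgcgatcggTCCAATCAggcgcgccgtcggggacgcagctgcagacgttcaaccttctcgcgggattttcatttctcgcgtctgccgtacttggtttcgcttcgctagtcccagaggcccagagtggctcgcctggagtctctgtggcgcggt

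The promoter of ZNF430 is at chr19:21020407-21020706, that of ZNF431 at chr19:21141790-21142089 and that of ZNF136 at chr19:12162846-12163145, all on the plus strand. ZNF430 and ZNF431 were identical at 258 of 294 aligned bases (87.8%). TCCAATCA was present in 29 of 29 promoters of C4, from which it was picked, in 20 of 25 of C3 and 4 of 5 of C1, and in 0 of the 150 of C2 and C5 to C9, against 1.54% of all 35116 promoters. CTGTCACTCA was present in 22 of 29 of C4, 12 of 25 of C3 and 0 of 5 of C1, in 0 of the same 150 and in 0.327% of all promoters. The clusters that hold TCCAATCA thus include C1, with no call, and the high C4, while C8, second in its median, holds neither TCCAATCA nor CTGTCACTCA. Of the 52 tested members with TCCAATCA 31 were higher and none lower (median 0.84; 2 lower on uniquely aligned reads), and of the 157 without it 96 were higher and 7 lower (median 0.68). A match is a description of these windows, and its counts cannot be told apart from those of the clusters.

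C9, at 55.5 to 58.5 Mb, the cluster with the most members (59), was mixed, with 31 of 57 higher and 5 lower (median 0.59). A gap of 0.5 Mb divides it. The segment at 55.5 to 56.7 Mb had 2 of 15 higher and 4 lower (median −0.25), and the one at 57.2 to 58.5 Mb had 29 of 42 higher and 1 lower (median 0.75). The first 9 genes of C9, from ZNF628 to ZNF444, all lacked the KRAB-like pattern. None of them was called higher (0 also at an unadjusted p under 0.05, in DESeq2 and in limma-voom; ZNF628 was on gene counts), and ZNF579, ZNF580, ZNF581 and ZNF787 were called lower. Over the whole of C9, 30 of the 42 tested members with the pattern were higher and none lower (median 0.75), and 1 of the 15 without it was higher and 5 lower (median −0.43). Of those with the pattern, 0 were lower at an unadjusted p under 0.05 as well, and in DESeq2 and limma-voom, and 1, ZNF471, was lower on uniquely aligned reads. These stretches were chosen after the values were seen.

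The other coding genes lying among the clusters give the local setting. In C2 3 of 30 were higher and 17 lower (median −0.78), and in C7 3 of 20 were higher and 9 lower (median −0.45), while the ZNF members of the same stretches had medians of 0.37 and 0.69. In C3 3 of 5 were lower (median −0.66). In C9 7 of 22 were higher and 7 lower, with a median of 0.51 beside 0.59 for the members, in C6 2 of 4 were higher (median 1.09, against 0.55), and in C8 2 of 3 were higher and 1 lower (median 0.57, against 0.90). C1, C4 and C5 had no other tested coding gene between their members. Some of the genes counted here carry other zinc finger symbols. In C6 ZFP82 and ZFP30 were the 2 called higher, and in C9 ZFP28, ZIK1 and ZSCAN22 were higher and ZSCAN18 lower.

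Neighbours called in opposite directions formed 4 pairs. ZNF576 and ZNF428 lie 6.07 kb apart in C7: ZNF576 had 827, 963 and 1148 in EV and 1361, 1477 and 1337 in PRL3 and rose by 0.51 on the log2 scale, where ZNF428 fell by 1.32. The call of ZNF576 was lost without EV 1, without any 1 of the PRL3 libraries and on all uniquely aligned reads (0.037). On the other side of ZNF428, 208 kb away, ZNF283 had 887, 605 and 904 in EV and 1786, 1804 and 1957 in PRL3 (2.31-fold). ZNF699 (2.60-fold higher) and ZNF559 (lower) lie 13.9 kb apart in C2, and ZNF557 (1.62-fold higher) and ZNF358 (lower) 427 kb apart. ZNF557 also had no call on all uniquely aligned reads (log2 fold change 0.23). In 3 of the 4 pairs the lower gene, ZNF358 or ZNF428, lacks the KRAB-like pattern, and ZNF428 is counted with both of its neighbours.

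The promoters of 2 lower genes are shown with every CG in capitals, to be read against those above. The promoter of ZNF358 lies at chr19:7515853-7516152 (plus strand) and that of ZNF428 at chr19:43619580-43619879 (minus).

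ZNF358: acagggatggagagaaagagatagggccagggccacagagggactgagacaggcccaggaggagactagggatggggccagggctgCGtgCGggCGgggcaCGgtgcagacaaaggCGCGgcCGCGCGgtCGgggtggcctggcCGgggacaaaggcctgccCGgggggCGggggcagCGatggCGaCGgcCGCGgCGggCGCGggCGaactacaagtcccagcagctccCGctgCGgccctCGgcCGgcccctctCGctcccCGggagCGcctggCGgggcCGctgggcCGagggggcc
ZNF428: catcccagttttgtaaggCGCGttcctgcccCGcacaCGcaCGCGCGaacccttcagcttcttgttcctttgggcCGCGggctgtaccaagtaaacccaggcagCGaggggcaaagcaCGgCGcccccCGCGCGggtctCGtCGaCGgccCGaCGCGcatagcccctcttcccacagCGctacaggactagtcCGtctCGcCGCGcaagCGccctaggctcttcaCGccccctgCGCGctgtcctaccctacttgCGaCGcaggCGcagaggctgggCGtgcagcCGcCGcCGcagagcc

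They hold 32 and 37 CG in 300 bases. The 7 lower members with a RefSeq promoter had a median of 32, with values from 15 in ZNF579 to 37 in ZNF428. The 127 higher members and the 75 members with no call each had a median of 20. The 674 other chromosome 19 coding genes with a promoter had a median of 26, against 14 over all promoters. In the 11-gene run the median was 10. The counts of CG are descriptions and were not tested.

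**Figure D4:**
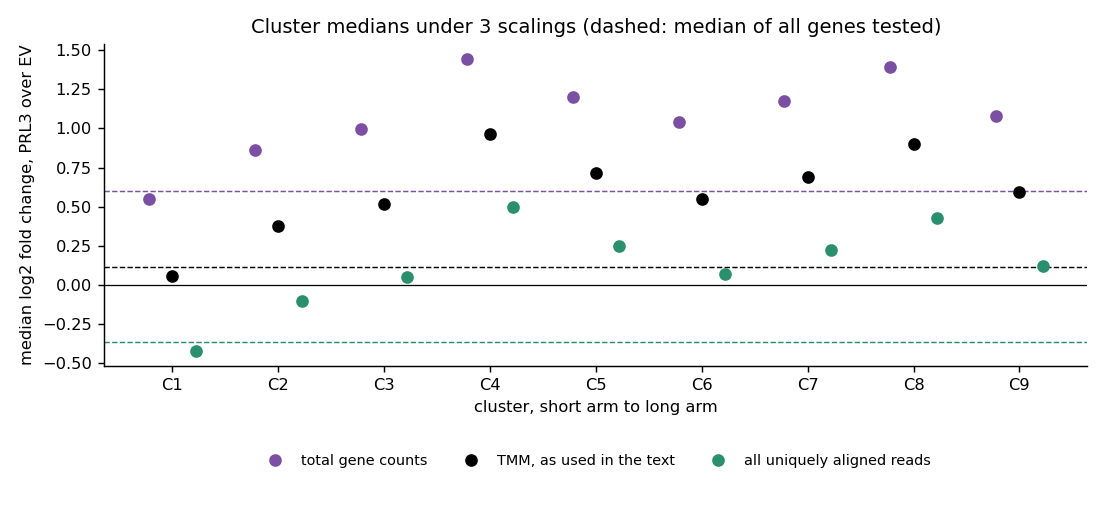
Median log2 fold change, PRL3 over EV, of the tested members of each cluster under 3 scalings (colours), with dashed lines for the median of all genes tested under the same scaling. The 9 clusters have the same order under each, with C4 and C8 highest and C1 lowest. A change of scale moves every gene by nearly the same amount, so this order had little room to change.

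Genes whose proteins act with KRAB zinc fingers on chromatin were counted in the same fit. Of 37 such genes, all tested, 1 was higher and 15 lower (median log2 fold change −0.30), where 22.7% of all genes and 31.6% of protein-coding genes were lower. TRIM28, the KRAB corepressor, lies on chromosome 19 itself, just beyond C9. It had 40807, 57994 and 41816 normalized counts in EV and 13962, 20329 and 15780.4 in PRL3, and fell by 1.49 on the log2 scale (SE 0.19, edgeR adjusted p = 5.63e-05). SETDB1, the methyltransferase it recruits, had 4103, 4205 and 4253 in EV and 4311, 3406 and 3496 in PRL3, which overlap (log2 fold change −0.16, no call).

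SUMO2 (fell by 1.09) and MBD3, a subunit of the NuRD complex (fell by 1.15), were also called lower. ATF7IP, the partner that stabilises SETDB1, was the 1 gene called higher, with 4812, 3298 and 4174 in EV and 7019, 5797 and 6734 in PRL3 (log2 fold change 0.67 ± 0.17, SE). The counts of this list moved with the scale: 12 higher and 9 lower against the total of gene counts, where 39.8% and 12.9% of all genes were so called, and 0 higher and 26 lower against all uniquely aligned reads, where 8.17% and 35.5% were.

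The 12 members that were not tested had too few counts. They include 3 read-through genes that join a member to its neighbour, and 3 members with no count in any library: ZNF625-ZNF20, ZNF816-ZNF321P and ZNF667. Read-through models also bear on their partners, since 2212 exon bases of ZNF20 (4.05-fold higher, with 74.3, 44.5 and 55.5 in EV and 228, 251 and 227 in PRL3) are overlapped on the same strand. Of the 85 tested members whose exons overlap another gene on the same strand 50 were higher and 5 lower, and of the 152 others 91 were higher and 3 lower. Of the 57 with over 5% shared windows 35 were higher and 2 lower, and of the 180 others 106 were higher and 6 lower.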

How the data were processed

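The 6 deposited files hold whole-number counts of reads per Ensembl gene, without normalization. Per the labels and methods, the authors aligned reads to GRCh38 with STAR (2.5.1b) after FastQC (0.11.3) and counted them with HTSeq (0.6.1, reverse-strand setting, Ensembl release 91). Reads matching several places or genes are left out of such counts, which touches duplicated genes. Symbols, coordinates and transcripts came from GENCODE release 44 (same build, later release; 57532 of 58243 identifiers matched).

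Rows naming no gene were left out of library sizes. Reads outside exons on the counted strand were 28.7% to 69.1% of uniquely aligned reads and ambiguous ones 1.67% to 5.01%. Counts were filtered with filterByExpr, scaled by TMM and fitted with edgeR (4.0.16, quasi-likelihood, R 4.3.3) over all genes, PRL3 against EV. Normalized counts are counts over the TMM-effective library size times its mean. The SE of a log2 fold change was worked back from edgeR's F statistic, as the absolute log2 fold change over the square root of F. With 3 libraries a group an exact permutation test cannot go below p = 0.1, so none is given. Tested on simulated data, 72 of 183 genes changed 2-fold among 22754 were called, with 6 false calls. In the real data far more genes were called, 20.0% higher and 22.7% lower, so these rates need not hold for them.

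The members and lists were chosen with earlier results of these data known. Named genes were the 10 higher and up to 10 lower with the smallest p and no overlap, the most expressed and the most and least changed member of each cluster, a role list of 12, opposite neighbours, and KRAB partners by p. Alternatives were other scalings and filters, DESeq2 (1.42.0), limma-voom (limma 3.58.1), other cluster gaps and leaving out each library. Fingers and the KRAB-like pattern are letter patterns in translated canonical transcripts, which can miss diverged domains. One gene of the KRAB partner list that the naming rule picked is not reported here by name.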

Additional observations from a re-analysis of the deposited data

Results flagged for a closer look

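Reads outside the gene counts differed between groups. In PRL3 66.3% ± 3.18 (SD, n = 3) of the uniquely aligned reads matched no annotated exon on the counted strand and in EV 33.3% ± 6.75. The annotated exons of the members take a median of 23.4% of the gene's length, against 24.6% in the other tested coding genes of chromosome 19, and the part of reads outside exons in the members' changes was not tested.

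Noncoding genes that lie inside members on the same strand were in no comparison above. The 17 tested, in 16 host genes, had a median log2 fold change of 1.04, PRL3 over EV, with 7 higher and 0 lower by edgeR (20.0% and 22.7% over all genes; 0 lower also at an unadjusted p under 0.05, in DESeq2 and in limma-voom), while the 6 on the opposite strand had a median of 0.06, with 1 higher and 1 lower. Whether the same-strand counts are unspliced RNA of the host was not tested.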

How the results depend on the processing

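No paired analysis was possible because the EV and PRL3 libraries share no number. The scale moved the counts of calls and the medians, and the cause was not tested, while the difference between arms moved with the library left out. Against all uniquely aligned reads 52 members were higher and 21 lower, their median was 0.24, and the medians of C1 to C9 were −0.42, −0.10, 0.050, 0.50, 0.25, 0.066, 0.22, 0.43 and 0.12. Against the total of gene counts 4 were lower, the median was 1.201, and those of C1 to C9 were 0.55, 0.87, 1.00, 1.45, 1.201, 1.04, 1.17, 1.39 and 1.08. Under upper-quartile scaling the median was 0.90 and those of C1, C2, C3, C4, C7 and C9 were 0.23, 0.56, 0.70, 1.14, 0.87 and 0.77. With protein-coding genes only they were 0.90 and 0.24, 0.55, 0.69, 1.14, 0.87 and 0.77. Higher and lower KRAB partners numbered 12 and 9 on gene counts and 0 and 26 on uniquely aligned reads, and 4 were higher under upper-quartile scaling and with coding genes only.

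The log2 fold changes of 11 named members changed sign. On uniquely aligned reads they were −0.035 in ZNF57, −0.18 in ZNF121, −0.47 in ZNF700, −0.46 in ZNF599, −0.14 in ZNF480, −0.083 in ZNF331 and −0.033 in ZNF420. ZNF556, ZNF682 and ZNF577 were at 0.0048, 0.060 and 0.087 under upper-quartile scaling, 0.31, 0.37 and 0.39 on gene counts and 0.0032, 0.062 and 0.088 with coding genes only, and ZNF146 at 0.10 on gene counts. ZNF700 and ZNF599 were at −0.029 and −0.032 under relative-log scaling, −0.029 and −0.033 in DESeq2, and ZNF700 at −0.0097 in limma-voom.

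Leaving out 1 library gave 109 to 151 higher and 6 to 10 lower members, a median of 0.63 to 0.77, C1 medians of −0.20 to 0.15 (lowest without EV 2), C2 medians of 0.36 to 0.55, a difference between arms of −0.076 to 0.11, and 1 to 3 higher KRAB partners (3 without EV 1). ZNF700 ranged from −0.059 to 0.11 and ZNF599 from −0.18 to 0.17. Without members whose exons overlap another gene, which leaves fewer, 91 were higher and 3 lower, and C2 and C3 were at 0.54 and 0.63. Without members with over 5% shared windows, a choice made after seeing the data, C3 and C5 were at 0.63 and 0.21. With gaps of 0.5 and 2 Mb the segments nearest C9 were at 0.75 and 0.75.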
